A study of Homo sapiens with 24 samples.

Results

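Of the 2656 mature miRNAs in the miR-seq table of OV90 cells, 8 that overlap small nucleolar RNA (snoRNA) or resemble U2 small nuclear RNA (snRNA) in sequence were described: hsa-miR-1246, hsa-miR-1290, hsa-miR-1291, hsa-miR-1248, hsa-miR-664a-5p, hsa-miR-664a-3p, hsa-miR-664b-5p and hsa-miR-664b-3p, for which the species prefix is left out from here on. Of these, 6 lie on annotated snoRNAs, and miR-1246 and miR-1290 share sequence with U2, exactly and with 1 mismatch, respectively. They were selected by name, and all 8 were abundant enough to be tested. OV90 is an established epithelial ovarian cancer cell line. There were 24 libraries in 6 groups of 4, and each group carried 1 shRNA, induced for 72 h with 1 µg/ml doxycycline. The groups were shNeg, the negative control shRNA (genotype Wildtype in the labels, Neg in the titles), shRELA (RELA shRNA knockdown) and shRELB (RELB shRNA knockdown), each in adherent and in spheroid conditions. Adherent cells grew in medium with serum, and spheroids grew in ultra-low attachment vessels in a serum-replacement medium with EGF and FGF, so that the growth form and the medium cannot be told apart. Spheroids served as the culture enriched in tumor-initiating cells (TICs). RELA and RELB are NF-κB subunits that act mainly in its classical and its alternative pathway, respectively. MiR-seq does not read their mRNAs, so the extent of silencing cannot be seen in these libraries. As each group carried 1 shRNA, silencing and any other effect of that shRNA cannot be told apart. No source used here says whether replicates were separate cultures, and p-values measure only the spread between these libraries, which may be technical.

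A typical miRNA is cut from a hairpin by Drosha and Dicer into a 5p and a 3p arm, and its seed, bases 2 to 8, is the part that pairs with target mRNAs. A few annotated miRNAs lie on other small RNAs. H/ACA snoRNAs, named SNORA, guide the conversion of uridine to pseudouridine in other RNAs and are usually cut from introns of host genes. U2 snRNA is a part of the spliceosome, where it pairs with the branch point of introns. A short read from such an RNA can be counted for a miRNA when their letters match, and whether mismatches were allowed in counting these libraries is not given in the sources used here.

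The mature sequences show how the 8 miRNAs differ and where reads could have more than one source. They were taken from RefSeq (GRCh38.p14), which held all 8, and are printed 5′ to 3′ with the seed in capitals. All 8 seeds were distinct.
miR-1246: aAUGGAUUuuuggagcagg
miR-1290: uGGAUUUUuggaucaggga
miR-1291: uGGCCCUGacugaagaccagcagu
miR-1248: aCCUUCUUguauaagcacugugcuaaa
miR-664a-5p: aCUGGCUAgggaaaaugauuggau
miR-664a-3p: uAUUCAUUuauccccagccuaca
miR-664b-5p: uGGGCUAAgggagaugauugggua
miR-664b-3p: uUCAUUUGccucccagccuaca

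miR-1246 and miR-1290 are the U2-like pair. The mature miR-1246 sequence matched GRCh38 exactly at 20 places, and 19 of them lay in annotated snRNA. It was identical to bases 94 to 112 of U2 (RNU2-1, and 19 annotated small RNA transcripts in all), so counts of miR-1246 do not say which locus the RNA came from. miR-1290 aligned 2 bases further along U2 with 1 mismatch, U13G (counted from the 5′ end of miR-1290, with the base of U2 last), and matched no annotated small RNA transcript exactly. The stretch of RNU2-1 at chr17:43233864-43233884 (minus strand) is shown beside miR-1290, with the differing base in capitals.
RNU2-1: aauggauuuuuggaGcaggga
miR-1290: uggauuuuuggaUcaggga

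Both miRNAs of this pair contain the stretch UGGAUUUUUGGA, which 2 of 2370 RefSeq mature miRNAs held (0.0844%). Their own annotated loci do not lie on an annotated snRNA or snoRNA. MIR1246 (chr2:176600980-176601052, minus strand) lies opposite an intron of the lncRNA LINC01117. The mature miR-1290 (chr1:18897078-18897096, minus strand) lies in an intron of ALDH4A1, on the same strand. The miR-1290 sequence matched GRCh38 exactly at 2 places on 2 chromosomes, neither in annotated snRNA or snoRNA. Counts of miR-1290 therefore do not say which of these the RNA came from.

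The other 6 miRNAs lie on H/ACA snoRNAs inside genes of the same strand. MIR664A (chr1:220200538-220200619, minus strand) overlaps SNORA36B in an intron of RAB3GAP2, and MIR664B (chrX:154768596-154768656, plus strand) overlaps SNORA36A in DKC1, the gene of the pseudouridine synthase dyskerin, where some transcript has an exon. MIR1291 (chr12:48654444-48654530, minus strand) overlaps SNORA2C in an intron of KANSL2. MIR1248 (chr3:186786672-186786777, plus strand) overlaps SNORA81 in EIF4A2, which encodes a helicase of translation initiation, also at an exon of some transcript. The 3p arms of miR-664a and miR-664b were identical at 14 of 22 aligned bases (63.6%) and share CCCAGCCUACA, and the 5p arms were identical at 17 of 23 (73.9%). miR-664b-3p also matched SNORA36C exactly, so that its counts have 2 possible sources.

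Total counts per library ranged from 3797175 to 8283549 in adherent and from 959141 to 3580931 in spheroid conditions. The shNeg spheroids were the shallowest, at 959141 to 1580252 counts, against 2024133 to 2747599 with shRELA and 1861232 to 3580931 with shRELB. Levels are given as CPM, the count of a miRNA relative to the library total scaled by TMM, and a count of 0 allows up to 3 counts, worth at most 0.8 CPM in an adherent and 2.29 CPM in a spheroid library on the same scale; such limits cover counting error only. The library spheroid shNeg replicate 1 stood apart, with a count for 432 miRNAs against 813 to 885 in the other 3 of its group, and results that rest on it are given with and without it. A miRNA was called at an FDR (edgeR's quasi-likelihood test, Benjamini-Hochberg over 905 miRNAs) below 0.01 with an absolute fold change above 2. Comparisons of RELA and RELB knockdown share their shNeg libraries, and every library also enters a comparison of cultures. Of the 6 epithelial miRNAs, miR-200c-3p (1641 to 15661 CPM), miR-205-5p (453 to 2621 CPM) and miR-141-3p (26.4 to 286 CPM) were read in every library. miR-200b-3p (0.733 to 40.6 CPM) and miR-200a-3p (0.764 to 12.2 CPM) were lower, and miR-429 was at 0 to 3.69 CPM.

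**Figure D1:**
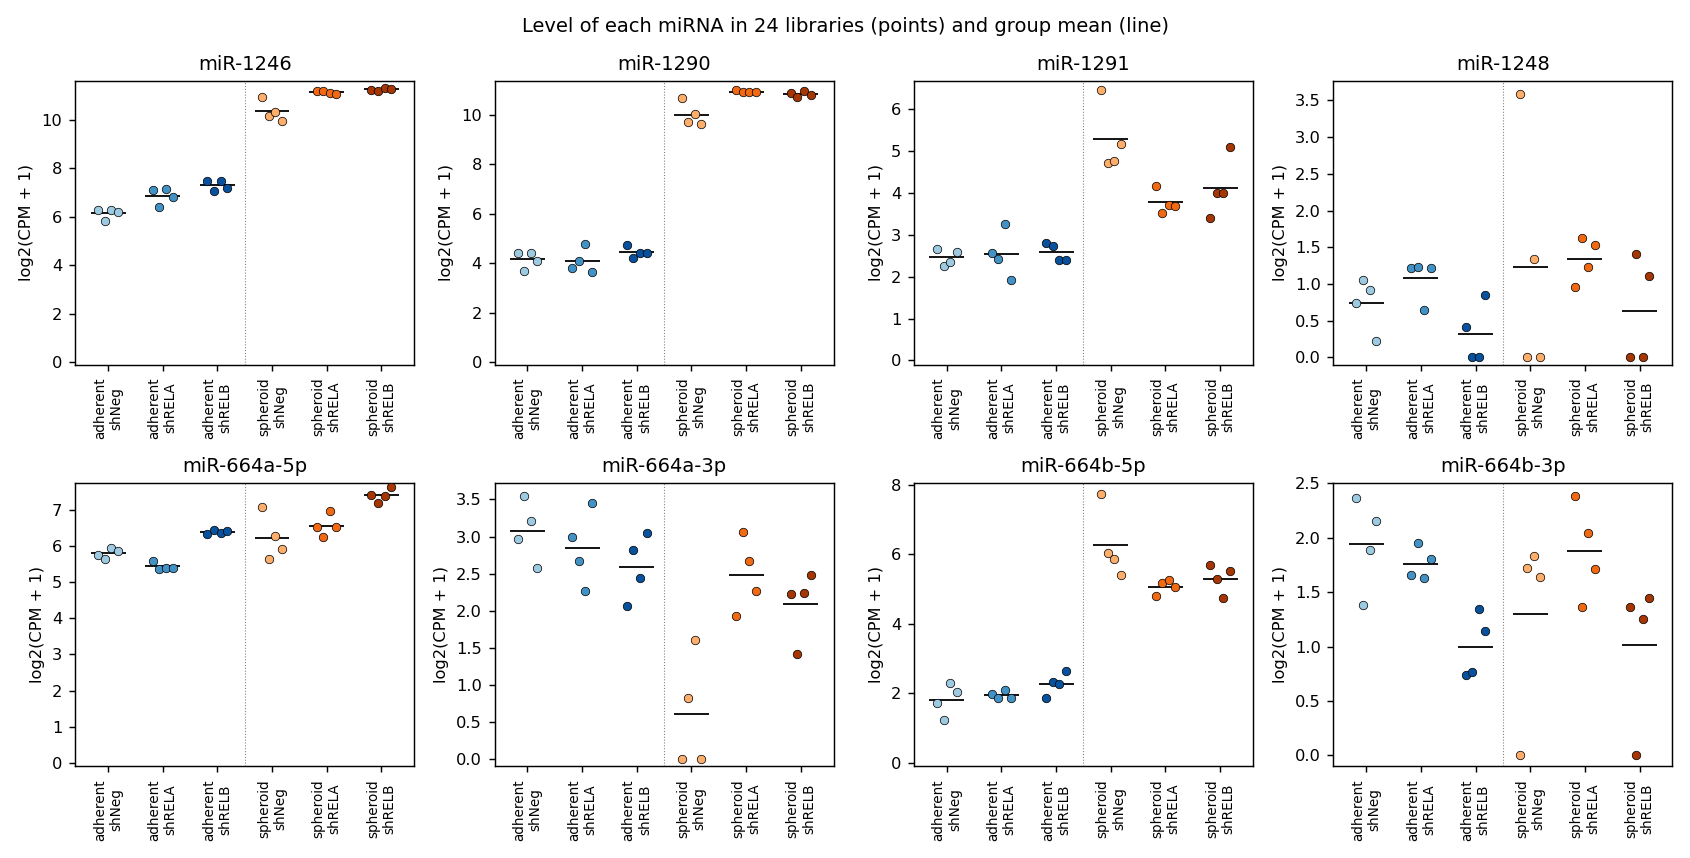
Level of each of the 8 miRNAs, as log2(CPM + 1), in the 4 libraries (points) of each group, with the group mean as a line; adherent groups are left of the dotted line. miR-1246 and miR-1290 were at 1001 CPM or more and 789 CPM or more in every spheroid library, against at most 178 and 26.5 CPM in the adherent libraries.

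The largest differences of the 8 were between cultures. Together, the 8 miRNAs took 0.0134% to 0.0318% of the counts of adherent and 0.252% to 0.515% of those of spheroid libraries. In spheroids most of these counts were of miR-1246 and miR-1290. They had 2715 and 2243 of the 5562 counts in shNeg replicate 1, and 8690 and 6280 of 15959 in shRELB replicate 4. In adherent shNeg replicate 1 they had 469 and 124 of 1028. In bulk RNA, a change in the number of cells that make an RNA and a change in its amount per cell cannot be told apart. Spheroid against adherent conditions, 5 of the 8 were called with each shRNA, against 42.2% of the 905 miRNAs tested with shNeg, 32.6% with shRELA and 25% with shRELB. The groups did not overlap for 5 of 8 with each shRNA, against 47.5%, 46.3% and 41.5% of all 905. The median log2 fold change of all 905 was -0.26, 0.07 and -0.0029.

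miR-1290 had the larger rise of the U2-like pair. In adherent conditions it was at 20.6, 12, 20.1 and 16 CPM with shNeg, at 12.9, 16.2, 26.5 and 11.4 CPM with shRELA, and at 25.4, 17.8, 20.6 and 20.3 CPM with shRELB. In spheroid conditions it was at 1645, 830, 1039 and 789 CPM with shNeg, at 2053, 1938, 1944 and 1924 CPM with shRELA, and at 1869, 1710, 1978 and 1801 CPM with shRELB. No spheroid library came near an adherent one, and the shNeg spheroids lay below both knockdowns. The culture change on the log2 scale was 5.96 (SE 0.276, edgeR FDR = 1.7e-18) with shNeg, 6.88 (SE 0.287, edgeR FDR = 1.29e-19) with shRELA and 6.45 (SE 0.281, edgeR FDR = 5.13e-19) with shRELB. Counted from the highest log2 fold change, these were ranks 20, 4 and 6 of 905. The first was 5.68 without spheroid shNeg replicate 1.

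miR-1246 was the most abundant of the 8, at rank 72 of 905 by mean level. In adherent conditions it was at 77.8, 56.5, 77.5 and 72.4 CPM with shNeg, at 135, 83.6, 141 and 113 CPM with shRELA, and at 175, 134, 178 and 146 CPM with shRELB. In spheroid conditions it was at 1991, 1132, 1295 and 1001 CPM with shNeg, at 2321, 2319, 2198 and 2134 CPM with shRELA, and at 2431, 2312, 2569 and 2492 CPM with shRELB. Both knockdowns lay above shNeg in each culture without overlap, and the knockdowns overlapped each other in each culture. Its culture change on the log2 scale was 4.25 (SE 0.218) with shNeg, 4.25 (SE 0.217) with shRELA and 3.95 (SE 0.214) with shRELB, with edgeR FDRs of 1.57e-17, 1.21e-17 and 8.36e-17. The first was also called without spheroid shNeg replicate 1. This was a 19-fold, 19-fold and 15.5-fold rise, against 62.2-fold, 117-fold and 87.2-fold for miR-1290.

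miR-1246 and miR-1290 therefore came closer in count in spheroids. The ratio of their counts within a library, which does not depend on scaling between libraries, was 3.78 to 4.71 in adherent shNeg, 5.15 to 10.5 in adherent shRELA and 6.88 to 8.65 in adherent shRELB libraries. In spheroid conditions it was 1.21 to 1.36, 1.11 to 1.2 and 1.3 to 1.38, respectively. On the log2 scale, with 0.5 counts added, the mean ratio in spheroid minus that in adherent conditions was -1.72 with shNeg, -2.67 with shRELA and -2.49 with shRELB. Each of these had p = 0.0286 in a 2-sided exact permutation test, the smallest that 4 against 4 libraries can give, and 0.0429 after adjustment over the 21 ratio tests made. Without spheroid shNeg replicate 1, the shNeg difference was -1.69.

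miR-1246 was higher with RELB knockdown in adherent cells, by 1.15 on the log2 scale (SE 0.195, edgeR FDR = 3.35e-05), at a mean of 158 ± 21.6 against 71 ± 9.98 CPM (SD, n = 4). It was the 1 called member of 8 in that comparison, in which 7.07% of all 905 were called. With RELA knockdown in adherent cells none of the 8 was called, against 3.76% of all miRNAs, and miR-1246 differed by 0.73 (SE 0.194, edgeR FDR = 0.0123). It was the 1 member of 8 there with an unadjusted p below 0.05, against 18.1% of all 905. miR-1290 did not follow it in adherent cells, with log2 differences of -0.05 (95% interval -0.52 to 0.42) for RELA and 0.29 (-0.18 to 0.75) for RELB knockdown. The log2 ratio of miR-1246 to miR-1290 was higher by 0.80 with shRELA and by 0.84 with shRELB (each exact permutation p = 0.0286, adjusted 0.0429). Neither group overlapped shNeg, at 1.91 to 2.22, but the shRELA ratios were spread widely, from 2.36 to 3.38. The shRELB ratios were at 2.78 to 3.11. The miR-1290 difference with shRELA was 0.04 under median-ratio size factors, so its sign is not settled.

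In spheroids the pair differed from shNeg in the same direction by less than the 2-fold threshold. RELA knockdown gave 1.66-fold for miR-1246 (log2 0.73, SE 0.191, edgeR FDR = 0.00394) and 1.83-fold for miR-1290 (log2 0.87, SE 0.221, edgeR FDR = 0.00293). RELB knockdown gave 1.81-fold (log2 0.86, SE 0.191, edgeR FDR = 0.000876) and 1.71-fold (log2 0.77, SE 0.221, edgeR FDR = 0.00859). The size of these differences depended on the processing, and none was called under the other settings of scaling, filter, threshold, test or fit. There the log2 values with RELA knockdown were 0.36 to 0.78 for miR-1246 and 0.50 to 0.93 for miR-1290. With RELB knockdown they were 0.61 to 0.91 and 0.54 to 0.84, respectively. The library that stood apart was the highest of the shNeg spheroids for both. Without spheroid shNeg replicate 1, the shNeg means fell from 1355 ± 441 to 1143 ± 147 CPM for miR-1246 and from 1076 ± 395 to 886 ± 134 CPM for miR-1290 (SD, n = 3), and 3 of these differences were called: miR-1290 with RELA (log2 1.15), miR-1246 with RELB (1.10) and miR-1290 with RELB knockdown (1.05). The ratio of the pair differed by -0.16 with shRELA (exact permutation p = 0.0286, adjusted 0.0429) and by 0.07 with shRELB (exact permutation p = 0.171, adjusted 0.212).

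**Figure D2:**
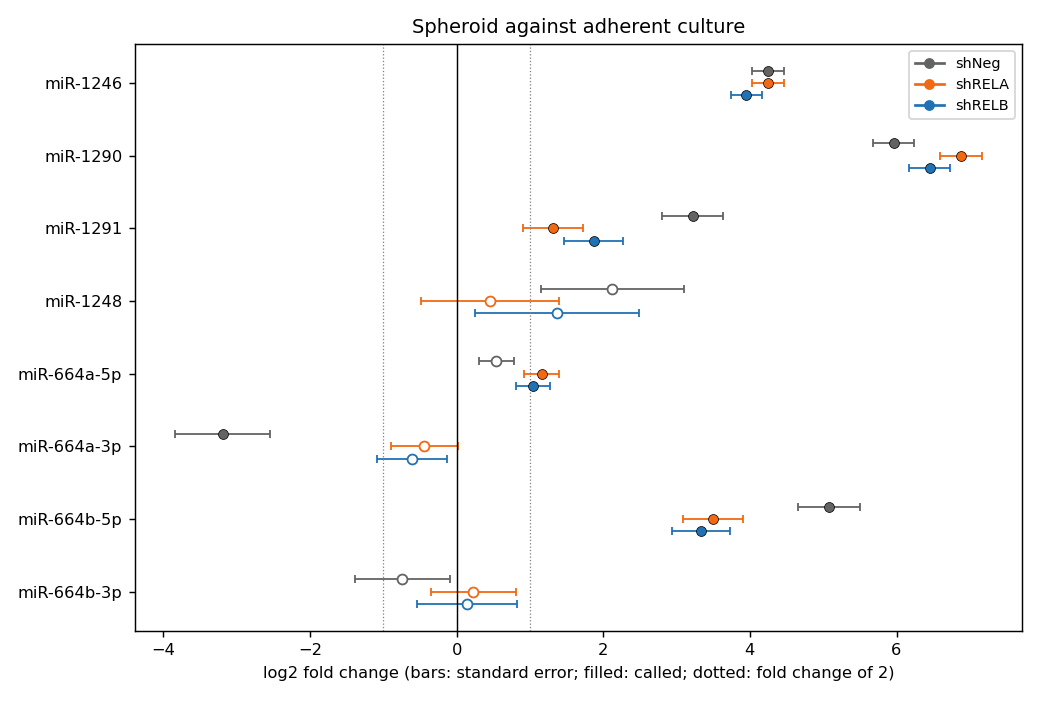
Log2 fold change of each miRNA in spheroid against adherent libraries with shNeg, shRELA and shRELB, with standard errors as bars; filled points were called and dotted lines mark a 2-fold change. miR-1290, miR-1246, miR-664b-5p and miR-1291 lay above 1 with each shRNA, whereas miR-664a-3p was at -3.19 with shNeg.

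The 4 arms of miR-664a and miR-664b did not move together. miR-664b-5p was at 2.32, 1.33, 3.94 and 3.09 CPM in adherent shNeg libraries and at 211, 64.1, 56.9 and 41.4 CPM in spheroid shNeg libraries. With shRELA it was at 2.97, 2.67, 3.24 and 2.65 CPM in adherent and at 26.7, 35.2, 37.1 and 32.3 CPM in spheroid libraries, and with shRELB at 2.68, 3.98, 3.77 and 5.24 CPM and at 50.1, 37.9, 25.6 and 44.4 CPM. Every spheroid library was above every adherent one, and spheroid shNeg replicate 1 was far above all others. The culture change on the log2 scale was 5.08 with shNeg (SE 0.426, edgeR FDR = 4.74e-12), 3.50 with shRELA (SE 0.408, edgeR FDR = 1.81e-08) and 3.33 with shRELB (SE 0.398, edgeR FDR = 3e-08). Without spheroid shNeg replicate 1, the first of these was 4.29.

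miR-664b-3p, from the other side of the same hairpin, showed no such rise. It had at most 25 counts in a library, with group means of 2.97, 2.4 and 1.03 CPM in adherent and 1.74, 2.8 and 1.17 CPM in spheroid conditions for shNeg, shRELA and shRELB. Its culture changes were not called with any shRNA, at log2 values of -0.74 (95% interval -2.02 to 0.53), 0.23 (-0.92 to 1.37) and 0.14 (-1.20 to 1.49). The spheroid levels lie near the limit that a count of 0 allows, and changes of this size were not detectable at this depth. The 3p arm made up 52.8%, 45.4% and 21.4% of the counts of both miR-664b arms in the adherent shNeg, shRELA and shRELB groups and 1.99%, 7.89% and 2.78% in the spheroid groups. On the log2 scale the ratio of 3p to 5p was lower in spheroid conditions with each shRNA, with differences of -5.72, -3.25 and -3.43 (each exact permutation p = 0.0286, adjusted 0.0429). Without spheroid shNeg replicate 1, in which the 3p arm had no count, the shNeg difference was -4.51. With 1 count added in place of 0.5 and all libraries kept, the differences were -5.34, -3.15 and -3.16.

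In miR-664a the 3p arm was the one that differed between cultures with shNeg. miR-664a-5p was at 52.9, 48.8, 60.2 and 57.6 CPM in adherent and at 135, 48.9, 76.4 and 59.7 CPM in spheroid shNeg libraries, which overlapped. miR-664a-3p was at 6.8, 10.7, 8.25 and 4.98 CPM (29 to 46 counts) in adherent and at 0, 0.764, 2.05 and 0 CPM (0 to 4 counts) in spheroid shNeg libraries, which did not overlap. The 5p arm was high in replicate 1 alone of the shNeg spheroids, while the 3p arm was nearly lost from the counts of that group. The log2 changes were 0.54 for the 5p arm (SE 0.236, edgeR FDR = 0.0479) and -3.19 for the 3p arm (SE 0.646, edgeR FDR = 7.94e-05). The latter was -4.79 without spheroid shNeg replicate 3, which held 4 of the 5 counts of that group. The changes were 0.18 for the 5p arm and -2.82 for the 3p arm without spheroid shNeg replicate 1, and the latter was called.

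With each knockdown, the culture change of the 5p arm was called and that of the 3p arm was not. miR-664a-5p was at 46.9, 40.4, 41.1 and 41.2 CPM in adherent and 90.4, 74.6, 124 and 90.4 CPM in spheroid shRELA libraries (log2 change 1.16, SE 0.236, edgeR FDR = 0.000135). With shRELB it was at 79.1, 85.6, 80.8 and 83.6 CPM in adherent and 169, 145, 165 and 198 CPM in spheroid libraries (log2 change 1.04, SE 0.232, edgeR FDR = 0.000512). Neither pair of groups overlapped. Both changes are close to the fold threshold. With no filter on low counts neither was called (0.99 with shRELA and 0.86 with shRELB), and the second was also not called without spheroid shRELB replicate 3 (0.99) or replicate 4 (0.91). miR-664a-3p in spheroids was at 2.81, 7.35, 5.37 and 3.8 CPM with shRELA and at 3.69, 1.66, 3.72 and 4.59 CPM with shRELB, which overlapped the adherent libraries of the same shRNA. Its culture changes of -0.44 (95% interval -1.34 to 0.45) and -0.61 (-1.54 to 0.32) were not called.

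The share of the 3p arm in the counts of both miR-664a arms was 11.7%, 13.5% and 5.84% in the adherent shNeg, shRELA and shRELB groups and 1.03%, 4.7% and 1.96% in the spheroid groups. The log2 ratio of 3p to 5p was lower in spheroid conditions, with differences of -3.73 with shNeg and -1.61 with shRELB (each exact permutation p = 0.0286, adjusted 0.0429). With 1 count added in place of 0.5 these were -3.12 and -1.55. With shRELA the difference of -1.52 was not past the threshold (exact permutation p = 0.0571, adjusted 0.075). In both miR-664 hairpins the ratio was also lower with RELB knockdown in adherent cells, with differences of -1.14 for miR-664a and -2.03 for miR-664b (each exact permutation p = 0.0286, adjusted 0.0429). RELA knockdown in adherent cells gave 0.10 and -0.43 (exact permutation p = 0.686 and 0.2). For the arms on their own, miR-664b-3p was at 4.14, 1.6, 2.69 and 3.44 CPM in adherent shNeg and at 0.669, 0.702, 1.54 and 1.21 CPM in adherent shRELB libraries, which did not overlap, and the difference of -1.50 (SE 0.583, edgeR FDR = 0.0858) was not called. miR-664a-3p differed by -0.55 (SE 0.426, edgeR FDR = 0.476) in the same comparison, with overlapping libraries.

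**Figure D3:**
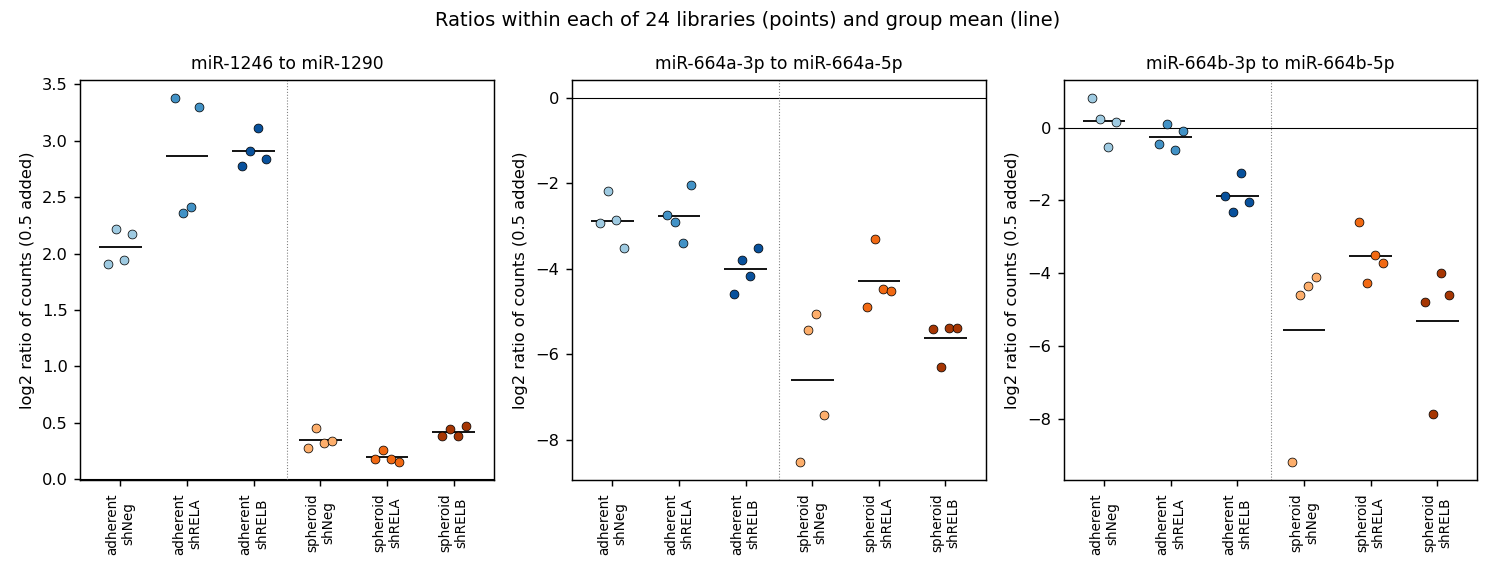
Log2 ratio of counts, with 0.5 added to each, of miR-1246 to miR-1290 and of the 3p to the 5p arm of miR-664a and of miR-664b in each library (points), with the group mean as a line. The ratio of miR-1246 to miR-1290 lay at 1.91 or above in every adherent library and at 0.47 or below in every spheroid library, and the lowest points for the arms are libraries with no count of the 3p arm.

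miR-1291 was read at low level in adherent cells, at 5.31, 3.73, 4.12 and 4.98 CPM with shNeg, 4.95, 4.39, 8.57 and 2.81 CPM with shRELA and 6.02, 5.61, 4.28 and 4.23 CPM with shRELB. In spheroids it was at 85.8, 25.2, 26.2 and 35.1 CPM with shNeg, 16.9, 10.5, 12.1 and 11.8 CPM with shRELA and 9.49, 15, 14.9 and 33.3 CPM with shRELB. All spheroid libraries were above all adherent ones, and the shNeg spheroids were above the shRELA spheroids. Its culture change on the log2 scale was 3.22 with shNeg (SE 0.416, edgeR FDR = 4.65e-08) and 1.87 with shRELB (SE 0.403, edgeR FDR = 0.000348). The first of these was 2.64, and called, without spheroid shNeg replicate 1. With shRELA it was 1.31 (SE 0.409, edgeR FDR = 0.00832), and this call was lost when any 1 of 7 of its 8 libraries was left out (1.10 to 1.39), all but adherent shRELA replicate 3, and with median-ratio size factors (1.18, edgeR FDR = 0.0157).

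miR-1248 was near the limit of detection. It had at most 15 counts in a library and none in 6 of the 24, and its group means were 0.7, 1.14 and 0.285 CPM in adherent and 3.13, 1.57 and 0.702 CPM in spheroid conditions for shNeg, shRELA and shRELB. The highest value, 11 CPM, was in spheroid shNeg replicate 1, and without it that group was at 0.513 ± 0.888 CPM (SD, n = 3). The log2 culture change with shNeg was 2.12 (SE 0.975, edgeR FDR = 0.0604) with that library and -0.15 without it. The spheroid knockdown differences of -0.96 for RELA and -1.92 for RELB became 1.32 and 0.37, so no direction can be read for miR-1248. Without it the differences of the knockdown change between cultures also turned, from -1.68 to 0.60 for RELA and from -0.76 to 1.53 for RELB.

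The members called in spheroids were miR-664a-3p, miR-664b-5p and miR-1291 with RELA knockdown, and miR-664a-5p and miR-664b-5p with RELB knockdown. With RELA knockdown 3 of 8 were called, against 15.1% of all 905, and with RELB knockdown 2 of 8, against 13.4%. Groups did not overlap for 5 of 8 with RELA and 3 of 8 with RELB knockdown, against 22.5% and 17.3% of all 905, and in adherent cells for 2 of 8 (20.7%) and 3 of 8 (33.1%). Leaving out 1 library at a time, 2 to 3 members were called with RELA and 0 to 4 with RELB knockdown. With only the groups compared in the fit, none of the 8 was called for either knockdown, while the count among all miRNAs tested went from 137 to 70 for RELA and from 121 to 50 for RELB. The RELB count was 0 without spheroid shRELB replicate 3, 3 without shNeg replicate 1 and 4 without shNeg replicate 3.

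miR-664a-3p, nearly absent from shNeg spheroids, was higher with RELA knockdown by 2.52 on the log2 scale (SE 0.694, edgeR FDR = 0.00564), without overlap of the libraries. The call rests on few counts, 5 in the shNeg and 42 in the shRELA group, whose libraries were all deeper. It was lost when libraries were scaled by their totals (2.15, edgeR FDR = 0.0179). It was also lost without spheroid shNeg replicate 1 (2.15, edgeR FDR = 0.0177), replicate 2 (2.50, edgeR FDR = 0.0149) or replicate 4 (2.15, edgeR FDR = 0.0217), and without shRELA replicate 2 (2.27, edgeR FDR = 0.0219) or replicate 3 (2.46, edgeR FDR = 0.0133). Without shNeg replicate 3 it was 4.12. With RELB knockdown the value was 2.04 (SE 0.712, edgeR FDR = 0.032), not called, 1.67 and not called without shNeg replicate 1, and 3.63 and called without shNeg replicate 3. The ratio of the miR-664a arms was higher by 2.31 with RELA knockdown (exact permutation p = 0.0286, adjusted 0.0429) and by 0.98 with RELB knockdown (exact permutation p = 0.343, adjusted 0.379). Without shNeg replicate 1 these were 1.67 and 0.34.

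miR-664a-5p was higher with RELB knockdown in spheroids by 1.08 (SE 0.237, edgeR FDR = 0.000694), from 80 ± 38.4 to 169 ± 22 CPM (SD, n = 4), and the libraries did not overlap. Without shNeg replicate 1 it was 1.45 and was called. The fold change fell just under 2 without shNeg replicate 2 (log2 0.91) or replicate 4 (0.97), or without shRELB replicate 3 (0.98) or replicate 4 (0.90), and it was 0.84 to 0.95 under 4 other settings of scaling, filter or test. In adherent cells the shRELB libraries were also all above the shNeg libraries, though the difference of 0.58 was not called (SE 0.232, edgeR FDR = 0.0933). The shRELA libraries of adherent cells were all below shNeg, at -0.37 (SE 0.233, edgeR FDR = 0.44), also not called. In spheroids RELA knockdown gave 0.25 (95% interval -0.22 to 0.71), and 0.62 without shNeg replicate 1, which was not called (edgeR FDR = 0.02).

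miR-664b-5p and miR-1291, both highest in spheroid shNeg replicate 1, were lower with knockdown in spheroids. miR-664b-5p changed by -1.50 on the log2 scale with RELA (SE 0.357, edgeR FDR = 0.00146) and by -1.24 with RELB knockdown (SE 0.352, edgeR FDR = 0.00852). Without shNeg replicate 1, whose group then had a mean of 54.2 ± 11.6 in place of 93.4 ± 79.1 CPM, the differences were -0.72 (edgeR FDR = 0.0406) and -0.45 (edgeR FDR = 0.217), and neither was called. With limma neither was called (-1.18 and -0.96). The RELB call was also lost without shRELB replicate 1 (-1.37, edgeR FDR = 0.0103), replicate 2 (-1.22, edgeR FDR = 0.0238) or replicate 3 (-1.18, edgeR FDR = 0.0223). miR-1291 fell by 1.74 with RELA knockdown (SE 0.399, edgeR FDR = 0.00108), with -1.92 to -1.17 when 1 library was left out, and stayed called each time. The value of -1.17 (edgeR FDR = 0.00933) was without shNeg replicate 1. With RELB knockdown its difference of -1.22 (SE 0.385, edgeR FDR = 0.0173) was not called, but was without shNeg replicate 2 (-1.40) or replicate 3 (-1.40) or shRELB replicate 4 (-1.78). Without shNeg replicate 1 it was -0.63 (edgeR FDR = 0.178).

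**Figure D4:**
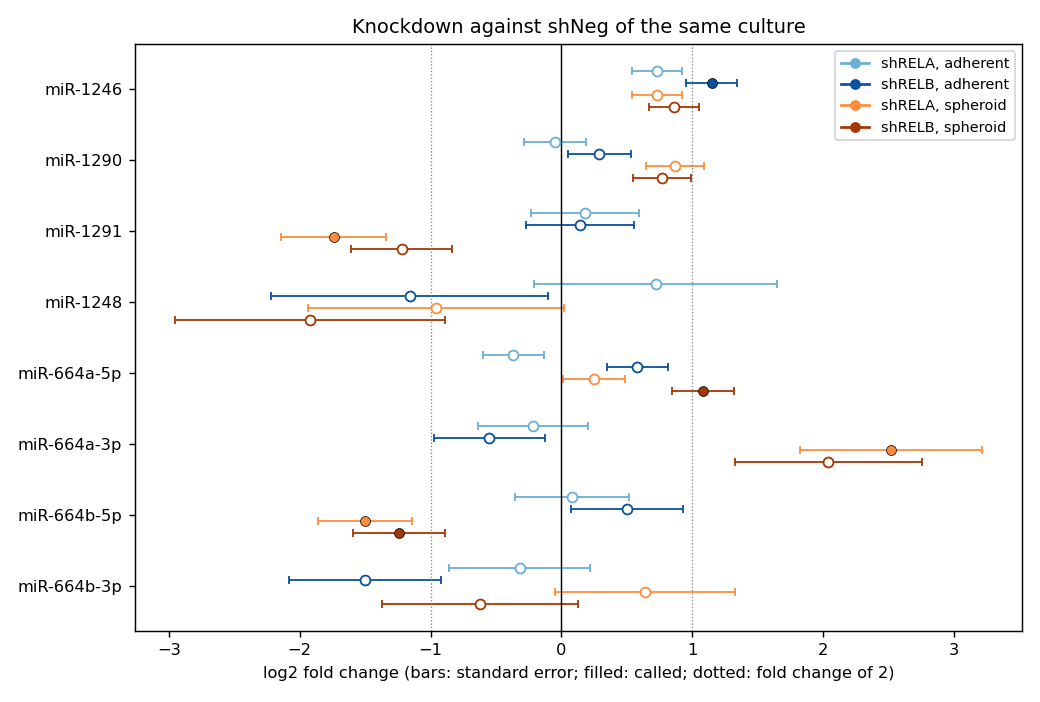
Log2 fold change of each miRNA with RELA and with RELB knockdown against shNeg of the same culture, with standard errors as bars; filled points were called and dotted lines mark a 2-fold change. In spheroids miR-664a-3p was above 0 (2.52 and 2.04) and miR-664b-5p and miR-1291 were below it (-1.50 and -1.24, -1.74 and -1.22); miR-1246 was above 0 in all 4 comparisons.

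Whether a knockdown acted differently in the 2 cultures was tested as the difference of its change. None of the 8 was called for either knockdown, against 7.62% of all 905 for RELA and 8.51% for RELB. At an unadjusted p below 0.05, 4 of the 8 passed for RELA and 3 for RELB, against 28.1% and 28.3% of all 905. For miR-1246 the difference (spheroid minus adherent change) was a ratio of 0.997 for RELA (log2 95% interval -0.51 to 0.50) and of 0.813 for RELB (-0.83 to 0.23). For miR-664a-3p it was 2.75 on the log2 scale (SE 0.82, edgeR FDR = 0.0221) for RELA and 2.58 (SE 0.833, edgeR FDR = 0.0282) for RELB, and for miR-1291 -1.92 (SE 0.571, edgeR FDR = 0.022) for RELA. For miR-664b-5p it was -1.74 (SE 0.554, edgeR FDR = 0.0263) for RELB. Single libraries moved some past the threshold: miR-664a-3p without spheroid shNeg replicate 3 (4.34 for RELA and 4.18 for RELB), miR-664b-5p for RELB without spheroid shNeg replicate 4 (-1.99), and miR-1290 for RELA, at 0.92 (SE 0.326, edgeR FDR = 0.0559), without adherent shRELA replicate 3 (1.23) or spheroid shNeg replicate 1 (1.20). The difference for miR-664b-5p without that spheroid shNeg library was -0.95 for RELB (edgeR FDR = 0.107), and that for miR-1291 was -1.34 for RELA (edgeR FDR = 0.0516). For miR-664a-3p it was then 2.37 for RELA and 2.22 for RELB, and none of these 4 was called.

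Other miRNAs found on annotated snoRNA or small Cajal body RNA were miR-1843 (on SCARNA3), miR-3651 (SNORA84) and both arms of miR-6516 (SCARNA16). Of these, 3 of 4 were tested. Only miRNAs with a hairpin in the RefSeq sequences used were searched, so this list may be incomplete. Spheroid against adherent, miR-3651 was called with shNeg (log2 4.52, SE 0.826, edgeR FDR = 1.89e-05; 4.38 without spheroid shNeg replicate 1) and miR-1843 with shRELA (1.04, SE 0.21, edgeR FDR = 0.000125), and none was called with shRELB. The medians of the 3 were 0.62, 1.04 and 0.74, and none was called in the 4 knockdown comparisons. The list's summed level was 42.5 to 77.1 CPM in adherent and 74.1 to 132 CPM in spheroid libraries. Its largest member, miR-1843, was not called with shNeg (0.62, SE 0.211, edgeR FDR = 0.0122) or shRELB (0.74, SE 0.207, edgeR FDR = 0.00451). The values of miR-3651 rest on few reads, at most 15 counts in a library and a median of 0.666 CPM.

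A second list, fixed by name, held 5 miRNAs linked to tRNA or ribosomal RNA precursor sequence, a link that was not checked here. Its summed level went the other way, at 1710 to 3440 CPM in adherent and 479 to 1337 CPM in spheroid libraries, carried by miR-1260a and miR-1260b. Their log2 changes were -1.71 and -1.84 with shNeg, -1.27 and -1.25 with shRELA and -2.03 and -2.04 with shRELB, each called. Spheroid against adherent, 4 of the 5 were called with shNeg, 3 with shRELA and 3 with shRELB, with medians of -1.22, -1.25 and -0.08. miR-3648 and miR-6724-5p were higher with shNeg (3.86, SE 0.984, and 3.53, SE 0.598), at 2.87 (edgeR FDR = 0.0148, not called) and 1.87 (called) without spheroid shNeg replicate 1. The values of miR-3648 rest on few reads, at most 18 counts in a library and a median of 0.496 CPM. In the knockdown comparisons 1 call was made, miR-6724-5p in spheroids with RELA knockdown (0.25-fold, SE 0.572 on the log2 scale, edgeR FDR = 0.00788), and it was not called without spheroid shNeg replicate 1 (log2 -0.35, edgeR FDR = 0.604).

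Some markers of other cells were read, at up to 707 CPM for miR-486-5p, 167 for miR-143-3p, 107 for miR-145-5p and 48.3 for miR-150-5p. miR-223-3p, miR-142-3p, miR-199a-5p and miR-214-3p were at 11.2 CPM or less. The summed levels of these markers differed between cultures and with knockdown. The summed level of 6 blood cell miRNAs was 23.8 to 57 CPM in adherent and 72.1 to 725 CPM in spheroid libraries, with 431 to 725 CPM in the shNeg spheroids, and it was mostly miR-486-5p. The defining red cell miRNAs were near 0, with at most 38 counts of miR-451a and 4 of miR-144-3p in a library. The 4 fibroblast miRNAs summed to 22.7 to 257 CPM in adherent and 16.3 to 129 CPM in spheroid libraries, and the 6 epithelial miRNAs to 2486 to 9637 and 3222 to 16336 CPM. By knockdown, the median of the blood cell sum was 53.6, 31.8 and 55 CPM in adherent and 480, 102 and 213 CPM in spheroid libraries with shNeg, shRELA and shRELB. That of the fibroblast sum was 252, 41.7 and 184 CPM and 67.2, 25 and 90.9 CPM, respectively. The part of other cells in the culture and knockdown differences was not tested.

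Of the miRNAs tested, 335 had a mean of at least 10 CPM, and 5 of them were members. Each of these members was set beside the non-members among the 335 by the Pearson correlation of log2(CPM + 1) across the 24 libraries. miR-1246 and miR-1290 (0.987 with each other) were nearest to miR-320d, miR-320c and miR-320b, at 0.985, 0.982 and 0.979 for miR-1246 and at 0.992, 0.99 and 0.988 for miR-1290. miR-664b-5p was nearest to miR-4516 (0.983), miR-4488 (0.98) and miR-760 (0.979), and miR-1291 to miR-1275 (0.963), miR-328-3p (0.947) and miR-744-5p (0.945). miR-664a-5p was less like any other miRNA, with miR-629-5p and miR-1293 at 0.873 and miR-146b-3p at 0.861. These values describe libraries that share 2 cultures of unequal depth.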

How the data were processed

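MiR-seq was performed by the authors on OV90 cells in adherent or spheroid conditions, 24 libraries in 6 groups of 4, prepared with a QIAseq miRNA kit. Per the methods, adapters were trimmed with Cutadapt and reads assigned to miRBase (GRCh38) with miRDeep2. The table deposited by the authors holds an estimated count per mature miRNA and library, not scaled for library size, although it is titled as CPM. Whether unique molecular indices were collapsed is not given in the sources used here. Fractional values (3.04% of those above 0, none of them of the 8 members) were rounded.

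The members and lists were chosen with earlier results of these data known. All 8 members were named, and for those with a mean of at least 10 CPM the 3 miRNAs of highest correlation. List 1 was every other mature miRNA with a RefSeq hairpin that overlaps a snoRNA, snRNA or scaRNA in GENCODE. List 2 was miR-1260a, miR-1260b, miR-4454, miR-3648, miR-6724-5p and miR-3687 (no row in the table used here). Cell markers were for epithelium miR-200a-3p, miR-200b-3p, miR-200c-3p, miR-141-3p, miR-429 and miR-205-5p, for blood miR-451a, miR-144-3p, miR-486-5p, miR-223-3p, miR-142-3p and miR-150-5p, and for fibroblasts miR-143-3p, miR-145-5p, miR-199a-5p and miR-214-3p.

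The filter kept the 905 miRNAs that reached 1 CPM in 4 or more libraries. They were tested with edgeR 4.0.16 (R 4.3.3), using the quasi-likelihood test on TMM-scaled counts of all 24 libraries with the group as the only term (common dispersion 0.0888). The standard error was derived from the F statistic, and 95% intervals are normal intervals from it. Ratios within libraries were tested by 2-sided exact permutation (scipy 1.17.1). Only the edgeR test was checked on simulated counts, for RELA knockdown in each culture and for the culture comparison with shNeg. The simulated counts had the same dispersion for all miRNAs and no library that stood apart. The replicate numbers were checked for pairing. Alternatives were DESeq2 1.42.0, limma 3.58.1 on log2(CPM + 1), the likelihood ratio test, other scalings, filters and thresholds, a replicate block, only the groups compared, and each library left out in turn. Raw reads were not analysed here.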

Additional observations from a re-analysis of the deposited data

Results flagged for a closer look

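In 6 of the 48 sets of 4 libraries (8 miRNAs in 6 groups), 1 library lay far from the other 3 by Dixon's criterion. Chance meets this criterion in about 1 of 20 sets of independent, normally distributed values. The sets here share libraries, and some hold few counts, so that rate is only a rough guide. In spheroid shNeg replicate 1, which also had the fewest miRNAs with a count, 3 of the 8 were far above the rest of the group: miR-664b-5p at 211 CPM (others 41.4 to 64.1), miR-1291 at 85.8 CPM (others 25.2 to 35.1) and miR-1248 at 11 CPM (others 0 to 1.54). The remaining 3 were miR-664a-5p in adherent shRELA replicate 1 at 46.9 CPM (others 40.4 to 41.2), miR-1290 in spheroid shRELA replicate 1 at 2053 CPM (others 1924 to 1944) and miR-1248 in adherent shRELA replicate 3 at 0.571 CPM (others 1.32 to 1.34), which is 3 counts.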

How the results depend on the processing

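The culture calls of miR-1246, miR-1290 and miR-664b-5p with each shRNA, and of miR-1291 and miR-664a-3p with shNeg, were made under every alternative that tested them. Leaving out miRNAs below a mean of 10 CPM removed both 3p arms and miR-1248 from the tests. The spheroid libraries are the shallower ones and limit what can be said of those 3. Library totals without TMM moved the median log2 fold change of all 905 from -0.26 to 0.17 for the culture comparison with shNeg and from 0.09 to -0.25 for RELA knockdown in spheroids. The cause of the other changes below was not tested.

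The number of members called was 2 for RELB knockdown in adherent cells under the likelihood ratio test and with only the groups compared, miR-664b-3p being added. In spheroids it was 0 for both knockdowns with only the groups compared, and for RELB 4 at an FDR below 0.05. For the culture comparison with shRELA it was 3 with no filter. For the difference of the RELA change between cultures it was 1 with median-ratio size factors, library totals, a mean of at least 10 CPM and DESeq2, and 2 with the likelihood ratio test and an FDR below 0.05. For that of the RELB change it was 1 with library totals, a mean of at least 10 CPM, DESeq2 and the likelihood ratio test, and 2 at an FDR below 0.05. In these differences miR-1291 (RELA), miR-664b-5p (RELB) and miR-664a-3p (both) were the members added. For RELB knockdown in spheroids, miR-664a-5p was at 0.95, 0.84, 0.85 and 0.95, under the fold threshold, and miR-1291 called at -1.34, -1.46, -1.47 and -1.35 with median-ratio size factors, library totals, a mean of at least 10 CPM and DESeq2. For RELA knockdown in spheroids, library totals lost miR-664a-3p (2.15) and limma miR-664b-5p (-1.18).

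Same-numbered libraries did not deviate together (correlations from -0.524 to 0.36), so the numbers were not taken to pair them. With a replicate block, 1 member was called for RELB knockdown in spheroids, without miR-664b-5p (-1.15), and miR-1291 was lost from the culture comparison with shRELA (1.27). For the ratios, a block leaves the differences as they were (-1.14, 2.31, -3.73 and -1.61 for the miR-664a arms, -2.03, -5.72, -3.25 and -3.43 for the miR-664b arms, and 0.80, 0.84, -0.16, -1.72, -2.67 and -2.49 for miR-1246 to miR-1290), and 4 pairs cannot give a p under 0.125.

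Values that were not called turned sign as follows. miR-1290 with RELA knockdown in adherent cells was 0.04 with median-ratio size factors and DESeq2, and miR-664b-5p there was -0.02 with library totals and -0.0044 with no filter. In spheroids with RELA knockdown, miR-664a-5p was -0.10 with library totals and -0.01 with a mean of at least 10 CPM, and miR-1248 0.11 with limma. miR-664b-3p between cultures with shRELB was -0.04 with no filter. miR-1246 in the difference of the RELA change was 0.05, 0.07, 0.04 and 0.11 with no filter, limma, a replicate block and only the groups compared.

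With 1 library left out at a time, members called ranged from 2 to 3 (RELA) and 0 to 4 (RELB) in spheroids, from 4 to 5 between cultures with shRELA and shRELB, and from 0 to 1 for both differences between cultures. Log2 values that changed sign ranged from -0.11 to 0.31 (miR-664b-5p), -0.36 to 0.10 (miR-1290) and -0.17 to 0.38 (miR-1291) for RELA knockdown in adherent cells, from -0.03 to 0.41 and -0.28 to 0.59 for miR-664b-3p between cultures with shRELA and shRELB, and from -0.14 to 0.24 for miR-1246 in the difference of the RELA change. For miR-1248 they ranged from -1.37 to 1.32 (RELA) and -2.60 to 0.37 (RELB) in spheroids, from -0.15 to 2.54 between cultures with shNeg, and from -2.09 to 0.60 and -1.44 to 1.53 for the differences. Ratios with 3 against 4 libraries cannot give a p under 0.0571, so their values alone are given. For the miR-664a arms they ranged from -1.35 to -0.91 (adherent RELB), 1.67 to 2.83 (spheroid RELA), -4.25 to -3.09 and -1.81 to -1.38 (culture with shNeg and shRELB) and -0.14 to 0.33 (adherent RELA). For the miR-664b arms they ranged from -2.27 to -1.82 (adherent RELB), -6.20 to -4.51, -3.56 to -3.00 and -3.86 to -2.58 (culture with shNeg, shRELA and shRELB) and -0.95 to 1.10 (spheroid RELB). For miR-1246 to miR-1290 they ranged from 0.62 to 0.97 and 0.78 to 0.90 (adherent RELA and RELB), -0.18 to -0.12 (spheroid RELA), and -1.77 to -1.66, -2.84 to -2.50 and -2.54 to -2.43 (culture with shNeg, shRELA and shRELB).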
